A study of Homo sapiens with 3 samples.

Results

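Thioredoxin, peroxide and NRF2 antioxidant genes were followed in cells labelled KG1, a human acute myeloid leukemia line: NFE2L2, KEAP1, TXN, TXNRD1, PRDX1, SRXN1, NQO1, HMOX1, GPX4 and SOD2. They were picked out by gene symbol, and all 10 were found among the 61806 genes of the table. The series holds 3 RNA sequencing libraries. The control library came from cells that carried a control vector, which the study's text calls a scrambled short hairpin RNA (shRNA). The remaining libraries came from cells given a lentiviral shRNA against UCP2, which encodes an uncoupling protein of the mitochondrial inner membrane. These were titled shUCP2#2 and shUCP2#3, 1 library for each hairpin. All cells went through lentiviral transduction and a selection of positive cells after 72 h, and all were grown in RPMI medium with fetal bovine serum. Whether each library had its own culture is not stated in the labels, so differences between libraries may be technical. The control is 1 library and adds no spread of its own. The spread behind the p-values therefore comes from the difference between shUCP2#2 and shUCP2#3, which also differ in hairpin. In the main test a trend over all genes replaced each gene's own spread.

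The protein made from NFE2L2, NRF2, is a transcription factor that switches on antioxidant genes. KEAP1 holds NRF2 in the cytosol and hands it to a ubiquitin ligase for destruction until oxidants or electrophiles modify KEAP1. Peroxides themselves are removed by enzymes: peroxiredoxins draw electrons from thioredoxin, which thioredoxin reductase recharges with NADPH, whereas GPX4 reduces lipid peroxides with glutathione and SOD2 disposes of superoxide inside mitochondria. Red cell precursors and leukemic cells alike depend on these systems. After UCP2 silencing in its KG1 cells, the study followed mitochondrial reactive oxygen species. It also followed the ratios of NADP to NADPH and of reduced to oxidized glutathione.

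The libraries held between 16475165 and 18375090 gene counts, so a gene with 0 counts could have had up to 0.163 to 0.182 CPM (counts scaled to a common library total; the limit is 3 counts and covers counting error alone). UCP2 had 651 counts in the control, 608 in shUCP2#2 and 649 in shUCP2#3. With a fold between 0.846 and 1.28 (95% interval), UCP2 did not pass the test (log2 fold change 0.06, standard error (SE) 0.15, edgeR adjusted p = 0.888). The study itself reports, by immunoblot and qPCR, a significant loss of UCP2 protein and transcript with both hairpins in its KG1 cells. These libraries do not show that loss of transcript. Because the targeted transcript was not lower here, the libraries are called by their labels, and higher or lower always means relative to the control. Defining markers of the KG1 line were scarce: of 7 MHC class II genes 0 passed 10 CPM in every library and 5 had 0 counts throughout, and CD34 had 10 counts in shUCP2#2 and 0 in the others. Of 15 erythroid and megakaryocyte markers 11 passed 10 CPM in every library, with PF4 at 0, against 4 of 12 stem and progenitor markers, 1 of 10 monocyte and macrophage markers, 0 of 9 granulocyte markers, 1 of 12 T, NK and B cell markers and 3 of 10 fibroblast and epithelial markers. The summed erythroid and megakaryocyte level was 2401 CPM in the control, 1834 CPM in shUCP2#2 and 1801 CPM in shUCP2#3. Fetal globin genes made up most of this sum and most of its fall. The library shUCP2#2 stood apart in single genes, such as the collagen gene COL1A2 with 806 counts against 2 in the control and 3 in shUCP2#3.

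Of the 10 genes, TXNRD1 was higher in the libraries labelled shUCP2, PRDX1 and GPX4 were slightly lower, and 7 did not pass the test. For comparison, edgeR called 12.4% of the 15232 genes tested at an adjusted p under 0.05, 6.25% higher and 6.11% lower. Under the other settings used below, the share of all tested genes called was 12.3% with RLE size factors, 12% with library totals, 6.26% without a filter on low counts, 17.7% at a mean FPKM of at least 1, 7.58% without edgeR's abundance trend, 8.25% by DESeq2, 7.25% at an adjusted p of 0.01, and 0.0183% and 0.00914% by limma. The median log2 fold change of the 10 was -0.16, and that of all tested genes was 0.02. Both hairpins moved up for 2 genes, both moved down for 7, and for HMOX1 they moved opposite ways. Among all tested genes 5911 moved up and 5811 moved down with both hairpins, which share the control library. In bulk RNA, fewer cells of a type and less RNA per cell cannot be told apart.

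**Figure D1:**
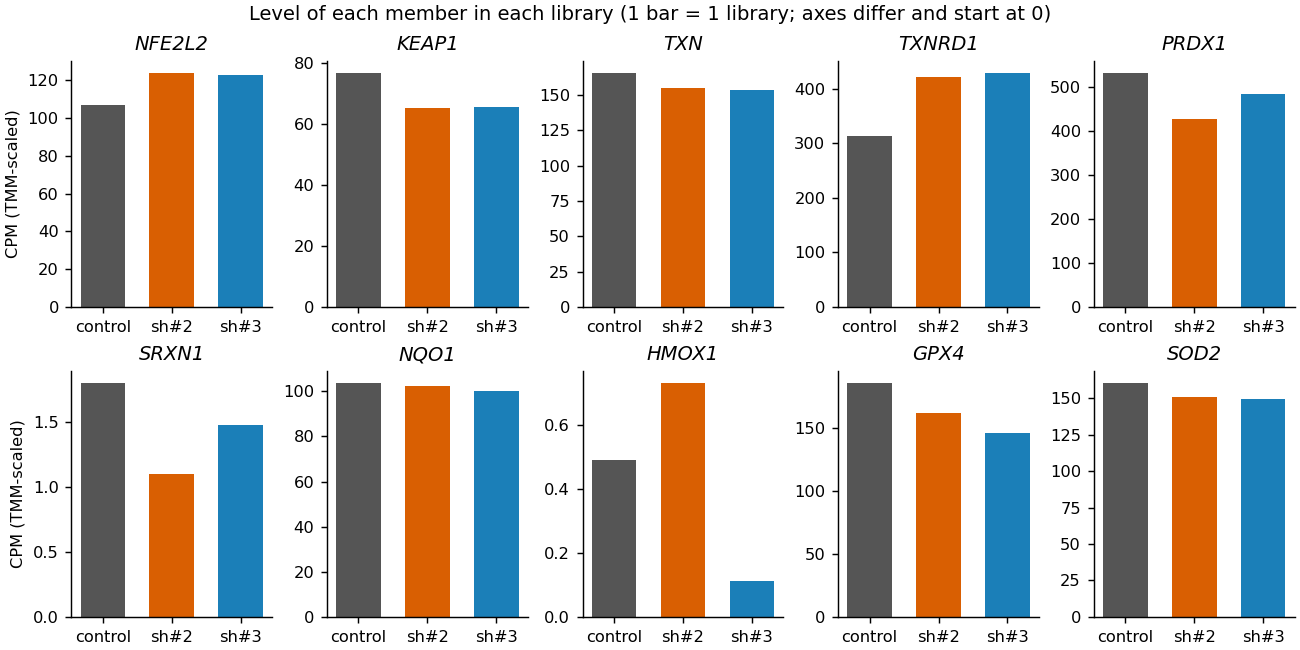
Level of each of the 10 genes in CPM scaled by TMM (a correction for library composition), with 1 bar for each library and a separate axis from 0 for each gene. TXNRD1 stands at 314 CPM in the control and above 420 CPM in both libraries labelled shUCP2, PRDX1 and GPX4 are highest in the control, and HMOX1 and SRXN1 lie below 2 CPM throughout.

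The genes differed widely in level. On the FPKM scale, which divides counts by exonic gene size and library total, their order was the same in all 3 libraries: PRDX1, TXN, GPX4, TXNRD1, NQO1, KEAP1, SOD2, NFE2L2, SRXN1 and HMOX1. PRDX1 had 316, 252 and 289 FPKM in the control, shUCP2#2 and shUCP2#3, and ranked 110th, 142nd and 115th of all genes in the table by FPKM. TXN had 164, 153 and 153 FPKM, and its client PRDX1 stood at 1.93, 1.65 and 1.89 times these values. TXNRD1, the reductase of TXN, had 46.6, 62.4 and 64.2 FPKM. The ranges of PRDX1, TXN, GPX4 and TXNRD1 over the libraries did not overlap, although the lowest GPX4 value (75.3 FPKM) and the highest TXNRD1 value (64.2 FPKM) lay closer together than either gene's values did across the libraries. At the other end SRXN1 had 0.71, 0.43 and 0.59 FPKM and HMOX1 had 0.21, 0.32 and 0.05 FPKM. The 8 other genes had 1067 counts or more in every library, and SRXN1 and HMOX1 had 33 or fewer.

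SOD2 and NFE2L2 were neighbors in that order, with FPKM of 8.83, 8.25 and 8.29 for SOD2 and of 7.11, 8.23 and 8.22 for NFE2L2. Their ranges over the libraries nearly met, with 8.25 FPKM the lowest of SOD2 and 8.23 FPKM the highest of NFE2L2. Their place depends on the length used. The table gives SOD2 an exonic size of 18144 bases and NFE2L2 one of 14975 bases, which join all annotated exons. With the longest principal protein-coding transcript of GENCODE 29 as the length, a choice made after seeing these sizes, NFE2L2 (2853 bases) had a mean of 41.2 FPKM and moved from the eighth to the fifth place. SOD2 (14266 bases) had 10.8 FPKM on that scale. TXN and GPX4 then had nearly the same mean, 182 and 179 FPKM, with overlapping ranges over the libraries.

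**Figure D2:**
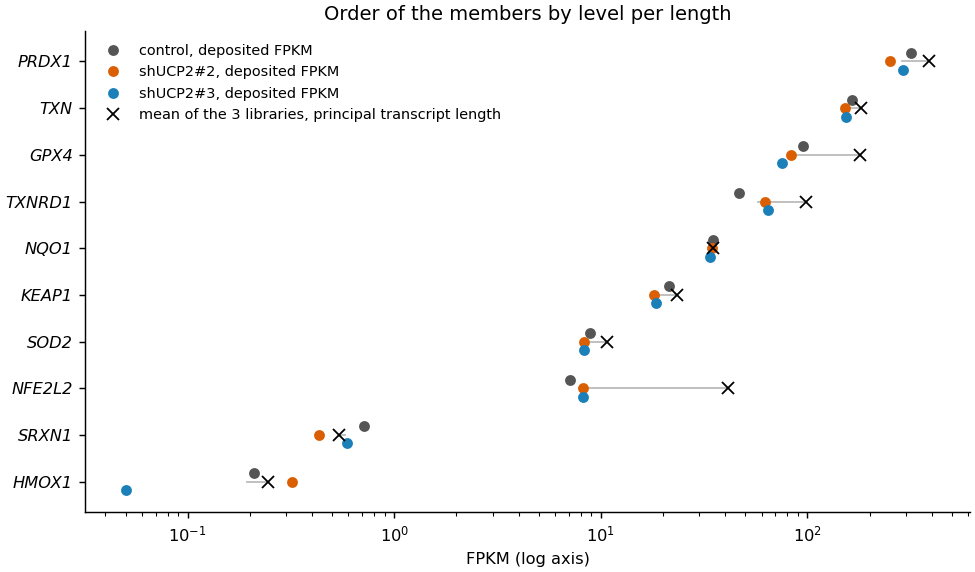
Deposited FPKM of each gene in each library (dots, log axis) and the mean over the 3 libraries when the longest principal transcript sets the length (crosses). The order by deposited FPKM is the same in all libraries, and NFE2L2 shifts most with the choice of length, from a mean of 7.85 to 41.2 FPKM.

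TXNRD1 (ENSG00000198431, chromosome 12, 104215779 to 104350307, plus strand, GRCh38) encodes cytosolic thioredoxin reductase, a selenoprotein that recharges thioredoxin. Its level was 314 CPM in the control, 421 CPM in shUCP2#2 and 429 CPM in shUCP2#3. Both libraries labelled shUCP2 lay well above the control and close to each other, 425 ± 6.04 CPM (SD, n = 2). TXNRD1 rose 1.36-fold (95% interval 1.21 to 1.52; log2 fold change 0.44, SE 0.09, edgeR adjusted p = 1.35e-05), and it was the single gene of the 10 that rose. By counting error alone, the ratio to the control was 1.34 (95% interval 1.30 to 1.39) in shUCP2#2 and 1.37 (1.32 to 1.42) in shUCP2#3.

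Because TXNRD1 rose, the 250 bases before each of its RefSeq start sites (GRCh38.p14) are shown. Capitals mark matches to TGACNNNGC, the core of the antioxidant response element that NRF2 binds with a small MAF protein. When NNN is TCA, the same letters also hold the AP-1 site TGACTCA.

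TXNRD1 upstream start site, chr12:104215529-104215778, plus strand: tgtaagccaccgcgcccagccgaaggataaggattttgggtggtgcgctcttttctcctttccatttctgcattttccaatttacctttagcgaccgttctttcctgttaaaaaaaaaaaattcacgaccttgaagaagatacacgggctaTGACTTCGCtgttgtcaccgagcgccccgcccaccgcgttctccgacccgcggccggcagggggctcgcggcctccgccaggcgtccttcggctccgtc
TXNRD1 downstream start site, chr12:104286782-104287031, plus strand: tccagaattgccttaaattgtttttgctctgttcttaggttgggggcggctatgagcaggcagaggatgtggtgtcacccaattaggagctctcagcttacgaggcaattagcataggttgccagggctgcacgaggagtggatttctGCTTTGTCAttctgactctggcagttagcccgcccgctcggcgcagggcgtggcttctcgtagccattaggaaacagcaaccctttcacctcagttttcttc

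The match before the upstream start reads TGACTTCGC on the plus strand, and that before the downstream start reads TGACAAAGC on the minus strand. A further match, TGACGGAGC on the minus strand, spans the upstream start and is not within the bases shown. Of the 10 genes, 8 had 16 promoters in the table (250 bases before to 50 after the start), and PRDX1 and HMOX1 had none. A match on either strand was found in 3 of the 16, both TXNRD1 promoters and 1 of the KEAP1 promoters, and in 13.3% of all 35116 promoters of the same length. A match of letters is a description and says nothing of binding in these cells.

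TXN (ENSG00000136810, chromosome 9, 110243810 to 110256507, minus strand), the cytosolic thioredoxin that TXNRD1 recharges, had 166 CPM in the control, 155 CPM in shUCP2#2 and 154 CPM in shUCP2#3. The change of -0.10 in log2 (SE 0.10) did not pass the test (edgeR adjusted p = 0.596), with a 95% interval of the fold from 0.818 to 1.06. The 7 pseudogene copies of TXN in the table had 9, 6 and 9 counts together. The FPKM of TXNRD1 was 0.285 times that of TXN in the control, 0.409 times in shUCP2#2 and 0.420 times in shUCP2#3. TXNIP, which binds and inhibits thioredoxin, shifted more: its FPKM was 0.163 times that of TXN in the control and 0.789 and 0.831 times in shUCP2#2 and shUCP2#3.

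PRDX1 removes peroxides, and SRXN1 acts on peroxiredoxins. PRDX1 (ENSG00000117450, chromosome 1, 45510914 to 45542732, minus strand), an abundant cytosolic peroxiredoxin, had 532 CPM in the control, 426 CPM in shUCP2#2 and 484 CPM in shUCP2#3. Both libraries lay below the control, shUCP2#2 by more (455 ± 40.9 CPM, SD, n = 2). The fall was to 0.855 times the control level (95% interval 0.767 to 0.954, log2 fold change -0.23, SE 0.08, edgeR adjusted p = 0.0432). It was no longer called with library totals in place of TMM (edgeR adjusted p = 0.0520) or without a filter on low counts (0.0806). Nor was it called in edgeR without its abundance trend (0.23), by DESeq2 (0.127) or by limma (0.2985 and 0.2952). SRXN1 (ENSG00000271303, chromosome 20, 646615 to 653200, minus strand), sulfiredoxin, which repairs overoxidized peroxiredoxins, had 33, 18 and 26 counts. With so few counts the fold had a 95% interval of 0.243 to 2.12 (edgeR adjusted p = 0.806), so a change within that span was not detectable at this depth.

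GPX4 (ENSG00000167468, chromosome 19, 1103994 to 1106791, plus strand), the selenoprotein that reduces lipid peroxides, had 186 CPM in the control, 162 CPM in shUCP2#2 and 146 CPM in shUCP2#3. Both libraries labelled shUCP2 were lower than the control, shUCP2#3 by more (154 ± 11.4 CPM, SD, n = 2). GPX4 fell to 0.829 times the control level (95% interval 0.730 to 0.942, log2 fold change -0.27, SE 0.09, edgeR adjusted p = 0.0371). The call was lost in edgeR without a filter on low counts (adjusted p = 0.0519) or without its abundance trend (0.1145). DESeq2 (0.173) and limma (0.2094 and 0.2082) did not call GPX4 either. TXNRD1 and GPX4, both of which need selenocysteine, thus moved in opposite directions, and the FPKM of TXNRD1 rose from 0.490 times that of GPX4 in the control to 0.753 and 0.853 times in shUCP2#2 and shUCP2#3. The summed erythroid and megakaryocyte marker level, mostly fetal globin, was also lower in the libraries labelled shUCP2 (1834 and 1801 CPM against 2401 CPM). Its part in the falls of PRDX1 and GPX4 was not tested.

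SOD2 (ENSG00000112096, chromosome 6, 159669069 to 159762529, minus strand), the manganese superoxide dismutase of mitochondria, had 161 CPM in the control, 150.6 CPM in shUCP2#2 and 149.8 CPM in shUCP2#3. The log2 difference was -0.10 (SE 0.10), which did not pass (edgeR adjusted p = 0.635), with a fold between 0.821 and 1.07 (95% interval). The gene overlaps WTAP (2192, 1624 and 1676 counts) and ACAT2 (2178, 1348 and 1433 counts) on the other strand. No source used here states whether counting kept strand, so whether reads in shared exons entered the SOD2 count is not known.

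The regulators moved in opposite directions without passing the test. NFE2L2 (ENSG00000116044, chromosome 2, 177218667 to 177392756, minus strand) had 107 CPM in the control, 124 CPM in shUCP2#2 and 123 CPM in shUCP2#3. Its log2 fold change was 0.21 (SE 0.10, edgeR adjusted p = 0.202), with a 95% interval of the fold from 1.00 to 1.33. KEAP1 (ENSG00000079999, chromosome 19, 10486125 to 10503558, minus strand) had 76.7 CPM in the control, 65.1 CPM in shUCP2#2 and 65.5 CPM in shUCP2#3. Its log2 fold change was -0.23 (SE 0.12, edgeR adjusted p = 0.242), with a 95% interval of the fold from 0.721 to 1.01. The control lay outside the pair of libraries labelled shUCP2 for both genes, as for 9 of the 10 genes followed. Both hairpins moved the same way, against the control they share, for 77% of all tested genes. The FPKM of NFE2L2 was 0.332 times that of KEAP1 in the control and 0.454 and 0.446 times in shUCP2#2 and shUCP2#3. This ratio joins the changes of both genes, neither of which passed. HNRNPA3, with 11184, 7565 and 8070 counts, overlaps an end of the annotated NFE2L2 locus on the other strand. ENSG00000213963, with 435, 356 and 384 counts, overlaps the locus on the same strand.

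The classic NRF2 targets NQO1 and HMOX1 did not pass the test. NQO1 (ENSG00000181019, chromosome 16, 69706996 to 69726668, minus strand), a quinone reductase often read as a gauge of NRF2 activity, had 104 CPM in the control, 103 CPM in shUCP2#2 and 100.2 CPM in shUCP2#3. Its log2 fold change was -0.03 (SE 0.11, edgeR adjusted p = 0.909), with a 95% interval of the fold from 0.845 to 1.13. HMOX1 (ENSG00000100292, chromosome 22, 35380361 to 35394214, plus strand), heme oxygenase 1, had 9 counts in the control, 12 in shUCP2#2 and 2 in shUCP2#3. By counting error alone its ratio to the control was 1.49 (95% interval 0.577 to 4.01) in shUCP2#2 and 0.231 (0.0243 to 1.12) in shUCP2#3. The fitted 95% interval of the fold was 0.0958 to 7.67 (edgeR adjusted p = 0.964), so neither a rise nor a fall of severalfold could be detected at this depth.

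**Figure D3:**
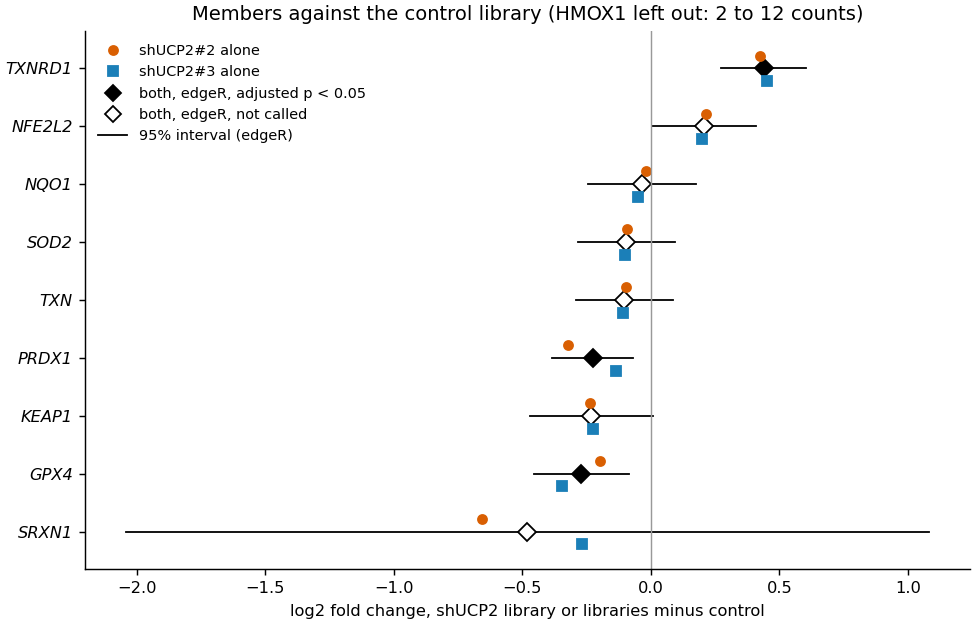
Log2 fold change of 9 of the 10 genes against the control library: diamonds give edgeR's estimate over both libraries labelled shUCP2 with its 95% interval, circles shUCP2#2 alone and squares shUCP2#3 alone, all against the same control. TXNRD1 (0.44) lies to the right of 0 with both hairpins, PRDX1 (-0.23) and GPX4 (-0.27) to the left, and the interval of SRXN1 is by far the widest.

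The hairpins were compared with each other for the same genes, without a test because each is 1 library. The counting interval of the ratio of shUCP2#3 to shUCP2#2 included 1 for 7 of the 10 genes and excluded it for 3, while it excluded 1 for 36.8% of all 15232 tested genes and for 46.5% of the 3264 with at least 1000 counts in every library. For TXNRD1 the ratio was 1.02 (95% interval 0.987 to 1.05) and for NFE2L2 it was 0.989 (0.930 to 1.05). The exceptions were PRDX1, 1.14 times as high in shUCP2#3 (1.10 to 1.17), GPX4, 0.901 times (0.853 to 0.951), and HMOX1, 0.155 times (0.0168 to 0.696) on 2 against 12 counts. The log2 changes against the control were -0.32 and -0.14 for PRDX1 in shUCP2#2 and shUCP2#3, and -0.20 and -0.35 for GPX4.

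Around these genes, 6 lists of related genes were examined, 121 genes together, of which 111 were tested. Of these 13 rose and 12 fell, a share of 22.5% called against 12.4% of all tested genes, with a median log2 fold change of 0.00. The lists were drawn up with earlier results on TXNIP, SLC7A11, GPX3 and SESN3 known, so this share is no independent result. Every list except that of selenoproteins held called genes in both directions. Of the genes named as called in these lists, limma called TXNIP alone.

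Of 16 partners and regulators of NRF2, 3 rose, 3 fell and 10 were not called (median log2 fold change 0.04). The level of MAFG, a small MAF protein that pairs with NRF2 on DNA, was 89.7 CPM in the control, 124 CPM in shUCP2#2 and 118 CPM in shUCP2#3, a rise (log2 fold change 0.43, SE 0.11). BACH1, the heme-sensing repressor that competes for the same sites and holds HMOX1 down, rose from 156 CPM to 187 and 193 CPM (0.29, SE 0.09). FBXW11, a beta-TrCP protein that can direct NRF2 to degradation, rose by 0.48 (SE 0.13). DPP3, which can bind KEAP1 in place of NRF2, showed the deepest fall of the list, from 28.2 CPM to 12.3 and 13.6 CPM (log2 fold change -1.13, SE 0.20, edgeR adjusted p = 7.50e-07). The sister factors NFE2, of erythroid and megakaryocyte cells, and NFE2L3 fell by 0.29 (SE 0.09) and 0.58 (SE 0.19). NFE2 had the highest FPKM of the list, 109 in the control, 90.5 in shUCP2#2 and 88.2 in shUCP2#3. The erythroid and megakaryocyte marker sum, mostly fetal globin, was lower in the same libraries. Its part in the fall of NFE2 was not tested. The ligase scaffold gene CUL3 (0.06, SE 0.12) and SQSTM1 (0.03, SE 0.10), both picked with their values in view, were not called. The calls of BACH1, NFE2 and NFE2L3 were lost in edgeR without its abundance trend (adjusted p = 0.0873, 0.0663 and 0.0922) and by DESeq2 (0.115, 0.0572 and 0.286), NFE2L3 also without a filter on low counts (0.0561), and FBXW11 was lost by DESeq2 (0.0865).

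Of 32 other NRF2 targets 27 were tested, 4 rose, 2 fell and 21 did not pass, with a median of 0.03. SLC7A11, which imports cystine, rose from 29.4 CPM to 94.8 and 105 CPM, and GCLC, the catalytic subunit of the first enzyme of glutathione synthesis, from 46.6 CPM to 63.2 and 74.9 CPM (log2 fold change 0.57, SE 0.13). Its modifier subunit GCLM rose from 236 CPM to 307 and 301 CPM (0.36, SE 0.09), and GSR, which recycles oxidized glutathione, from 364 CPM to 451 and 429 CPM (0.27, SE 0.08). Among those that fell, ME1, the cytosolic malic enzyme, which makes NADPH, had 37.3 CPM against 26.5 and 27.7 CPM (-0.46, SE 0.16). PGD, an NADPH-making dehydrogenase (-0.14, SE 0.08), and the ferritin light chain gene FTL, the highest of the list with 3159, 2970 and 2785 FPKM (-0.14, SE 0.06, edgeR adjusted p = 0.112), did not pass; FTL has many processed pseudogenes with which reads may be shared. PGD and the aldo-keto reductases AKR1C1 (0.23, SE 0.09), AKR1C2 (0.19, SE 0.14) and AKR1C3 (0.09, SE 0.10), which share much sequence and could share reads, were chosen after their values were seen, and none of these passed. Without edgeR's abundance trend the calls of GSR (adjusted p = 0.116) and ME1 (0.0934) were lost, and ME1 was also lost without a filter on low counts (0.0610) and by DESeq2 (0.292).

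**Figure D4:**
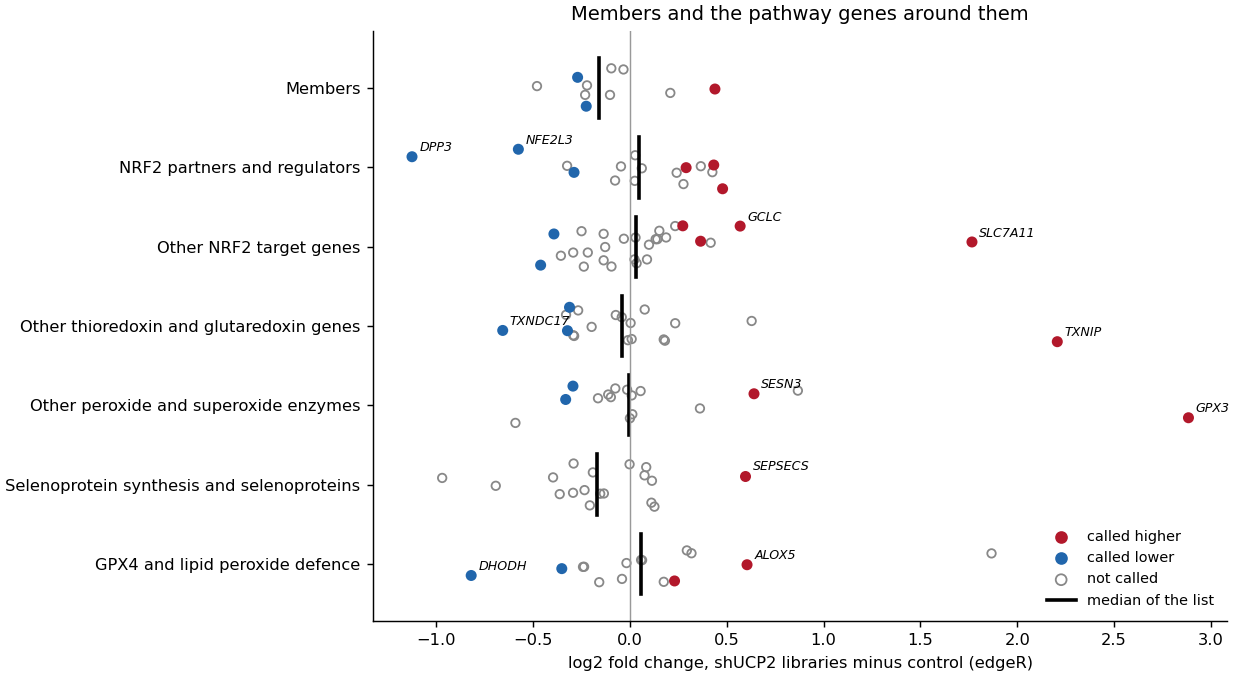
Log2 fold change of each tested gene by list (edgeR, libraries labelled shUCP2 minus control), with the 10 followed genes on the top line, HMOX1 included, filled dots for called genes, open dots for the rest and a black bar for each list's median. The called genes TXNIP, GPX3 and SLC7A11 and the uncalled, low-count ALOX15 (1.87) lie far to the right, while the median of every list lies between -0.17 and 0.06.

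Of 19 tested genes of other thioredoxins, glutaredoxins and their clients, TXNIP rose, 3 fell and 15 did not pass, with a median of -0.04. TXNIP had the highest mean FPKM of the list, a rank that comes from the rise itself: in the control its 26.8 FPKM lay below those of TXN2 (77.9), RRM1 (74.8), RRM2 (32.7) and GLRX3 (28.9). Mitochondrial thioredoxin, TXN2, fell from 129 CPM to 106 and 99.7 CPM (log2 fold change -0.32, SE 0.10, edgeR adjusted p = 0.0190), and TXNDC17, a small thioredoxin-like protein, from 26.2 CPM to 17.3 and 15.9 CPM (-0.66, SE 0.19). RRM2, a subunit of ribonucleotide reductase, which takes electrons from thioredoxin or glutaredoxin, fell from 299.998 CPM to 245 and 238 CPM (-0.31, SE 0.09). Its partner RRM1 (0.00, SE 0.09) and the mitochondrial reductase TXNRD2 (-0.20, SE 0.15), also picked with their values in view, were not called. The TXN2 call was lost in edgeR without its abundance trend (adjusted p = 0.0609) and by DESeq2 (0.147), and DESeq2 did not call TXNDC17 (0.202).

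Of 16 tested peroxide and superoxide enzymes and sestrins, 2 rose, 2 fell and 12 did not pass, with a median of -0.01. Next to PRDX1, 2 more of the peroxiredoxins fell. PRDX2, the chief peroxiredoxin of red cells, had 227 CPM in the control, 200.1 CPM in shUCP2#2 and 170.4 CPM in shUCP2#3 (log2 fold change -0.29, SE 0.09, edgeR adjusted p = 0.0134). PRDX4 of the secretory pathway had 121 CPM against 103 and 89.4 CPM (-0.33, SE 0.10, adjusted p = 0.0181). Mitochondrial PRDX3 (0.00, SE 0.09), PRDX5 (0.01, SE 0.10), PRDX6, the highest of the list in mean FPKM (-0.11, SE 0.08), and catalase, CAT (0.01, SE 0.09), did not pass, and of these PRDX3, PRDX5 and CAT were chosen after their values were seen. DESeq2 called neither PRDX2 (adjusted p = 0.128) nor PRDX4 (0.177), and edgeR without its abundance trend did not either (0.0652 and 0.0577).

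GPX3, the secreted glutathione peroxidase, had 11, 121 and 28 counts, most of them in shUCP2#2, the library that also held most of the counts of COL1A2. The log2 fold change was 2.88 over both (SE 0.60), 3.39 in shUCP2#2 alone and 1.25 in shUCP2#3 alone. SESN3, a sestrin under FOXO control, rose from 15.3 CPM to 21.5 and 26.3 CPM (0.64, SE 0.19), a call lost in edgeR without its abundance trend (adjusted p = 0.0568) and by DESeq2 (0.237). GPX1, the common cytosolic glutathione peroxidase, had 1, 7 and 0 counts and was not tested, so GPX4 was the glutathione peroxidase with by far the highest counts among those examined here (GPX1, GPX2, GPX3, GPX4, GPX7 and GPX8).

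Since TXNRD1 and GPX4 are both selenoproteins, genes that insert selenocysteine and other selenoprotein genes were examined. Of 18 tested, SEPSECS, which makes selenocysteine on its transfer RNA, rose from 21.0 CPM to 27.6 and 35.7 CPM (log2 fold change 0.60, SE 0.17), 0 fell in edgeR's test and 17 did not pass. DESeq2 called 0 of the list higher (SEPSECS adjusted p = 0.215). Beside the 0 that fell, 11 of the 18 were lower with both hairpins and the median was -0.17. Of all tested genes, 38.1% were lower with both hairpins, which share the control library, and the list was not tested as a set. SELENOF, the most abundant of the list, had a log2 fold change of -0.13 (SE 0.09).

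Of 15 genes tied to lipid peroxides and ferroptosis around GPX4, 2 rose, 2 fell and 11 did not pass, with a median of 0.06. ALOX5, a lipoxygenase that makes lipid peroxides, rose from 16.9 CPM to 28.99 and 22.5 CPM (log2 fold change 0.60, SE 0.19). NCOA4, which delivers ferritin for breakdown, was the highest of the list in mean FPKM and rose by 0.23 (SE 0.08). TFRC, the transferrin receptor that imports iron and is strongly expressed in erythroid cells, fell from 1943 CPM to 1505 and 1539 CPM (-0.35, SE 0.06, edgeR adjusted p = 2.36e-06). DHODH of the mitochondrial inner membrane fell from 11.4 CPM to 6.96 and 5.95 CPM (-0.82, SE 0.29). ACSL4, which loads membranes with oxidizable lipids (0.17, SE 0.09), and AIFM2, a defense beside GPX4 (-0.16, SE 0.21), again picked with their values in view, were not called. The DHODH call (edgeR adjusted p = 0.0425) was lost without a filter on low counts (0.102), at a mean FPKM of at least 1 (0.0539) and without the abundance trend (0.177), and DESeq2 gave it no adjusted p. Without the abundance trend ALOX5 (0.0607) and NCOA4 (0.244) were also lost, as were ALOX5 by DESeq2 (0.260) and NCOA4 without a filter (0.0553).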

How the data were processed

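The authors deposited 1 table of raw counts (reads per gene, unscaled) and FPKM, which the authors derived from count, exonic gene size and library total (recomputed here to within 0.005 for every gene). Exonic gene sizes came with the deposited table as other values. Of upstream software, the submitters' processing notes list HISAT2 2.2.1 and HTSeq 0.6.1, further cutadapt 1.9.1 and SAMtools 0.1.19, and also DESeq2, Cufflinks 2.2.1 and the build GRCh38. Annotation release and strandedness were not given in the sources used here. The extraction text in the labels is one for DNA, while the molecule field says total RNA, and values were treated as RNA.

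Groups followed the sample titles (1 control, 2 shUCP2); the series' design text numbers the hairpins otherwise. Counts were tested across all genes with edgeR 4.0.16 in R 4.3.3 (TMM, filterByExpr, quasi-likelihood F test, two-sided, Benjamini-Hochberg adjustment, threshold 0.05). The residual degrees of freedom were 1, and the single control library is assumed to vary like the other libraries. The prior degrees of freedom were infinite, so a gene's own spread was replaced by a trend over all genes. SE was the fold change over the root of F, and 95% intervals used normal quantiles. Changes per hairpin used log CPM (prior count 2). Counting intervals of ratios are exact binomial (scipy 1.17.1) and cover counting error alone. The steps were run on simulated counts drawn with the fitted dispersion, the same in every library. Such counts cannot check how the single control library varies.

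The 10 genes, the 6 other lists and the 7 marker lists were chosen with earlier results of these data known. Named genes were the 10, UCP2, every called gene of a list (up to 6) and the gene of each list with the highest mean FPKM; others are marked as chosen later. Results that need withheld items are not reported here. Alternatives were other scalings, filters and variance models, DESeq2 1.42.0, limma 3.58.1 on log2(FPKM + 1) and log2(FPKM + 0.1), each hairpin alone, and, added after seeing the data, a threshold of 0.01 and another transcript length. Promoters came from RefSeq (GRCh38.p14), transcript lengths from GENCODE 29, and matplotlib 3.10.9 (Python 3.11.15) drew the figures.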

Additional observations from a re-analysis of the deposited data

How the results depend on the processing

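TXNRD1 was called under 6 of 8 alternatives, and the direction of every one of the 10 genes was kept under all scalings, filters and tools in which it was tested. With each hairpin alone the direction was also kept, except for HMOX1 (0.48 in shUCP2#2 and -1.41 in shUCP2#3). The calls of PRDX1 and GPX4 were less stable: with library totals 1 gene of the 10 was called lower, and 0 were called lower without a filter on low counts, by edgeR without its abundance trend, by DESeq2, or at an adjusted p of 0.01. At an unadjusted p under 0.05, 2 were lower in each of these fits. Over all genes, in either direction, that cut held 3422 of 15232 with library totals and 3515 of 25001 without a filter. It held 2814 of 15232 without the abundance trend, 1682 genes by DESeq2 and 3458 of 15232 in the edgeR fit used throughout. Limma called 0 of the 8 genes it tested higher and 0 lower with either pseudocount (at an unadjusted p under 0.05, 1 and 1). Over all genes, 611 were higher and 544 lower without the abundance trend, 327 and 296 by DESeq2, 1 and 1 by limma on log2(FPKM + 1) and 1 and 0 on log2(FPKM + 0.1), where 2306 had an unadjusted p under 0.05. Of the related genes, 8 were higher and 5 lower both without the abundance trend and at an adjusted p of 0.01, 7 and 3 by DESeq2, and 1 and 0 by limma with either pseudocount (at an unadjusted p under 0.05, 11 and 17, or 11 and 16). Among the 10937 genes tested by limma, 2291 and 2306 had an unadjusted p under 0.05, in either direction, with pseudocounts of 1 and 0.1. The cause of the differences between settings was not tested. The UCP2 log2 fold change ran from 0.05 to 0.06 with 1 hairpin. No paired analysis was possible because the control group held 1 library. With 1 control library, no result could be checked without it.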
